A study of Mus musculus with 6 samples.

Results

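Chga, Chgb, Scg2, Scg3, Cpe, Pcsk1, Pcsk2, Ptprn2, Resp18 and Scgn encode granins and proteins that build, load or release the secretory granules of endocrine cells. These 10 genes were taken as a named list and not picked by a rule on their values, but with earlier results of these data known. All 10 were found among the 31028 genes of the single-cell RNA matrix and among the 8269 genes of the chromatin accessibility (ATAC) matrices. In the E10.5 mouse pancreas their transcripts were concentrated in an endocrine-like cluster. Inside that cluster 19 of 206 cells, picked by their Chgb level after the values were seen, held 61.1% of its Chgb transcripts. Several members, Chgb and Scg2 among them, differed in level with the hormone that led the cell.

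Endocrine cells store peptide hormones in dense-core granules that form at the trans-Golgi and fuse with the plasma membrane when calcium enters. The granins (Chga, Chgb, Scg2 and Scg3) are acidic proteins that aggregate with prohormones and help to load them into granules. The prohormone convertases encoded by Pcsk1 and Pcsk2 cut prohormones at paired basic residues, and carboxypeptidase E (Cpe) trims the exposed basic residues. In the embryonic pancreas endocrine cells arise from epithelial progenitors that pass through a transient state expressing the transcription factor Neurog3, and the early hormone cells are mostly glucagon cells.

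Proximal promoters were read for 9 of the 10 members from RefSeq (mouse build GRCm38.p6). They are shown because granin genes are textbook targets of factors that bind the cyclic AMP response element (CRE), and because the members' RNA levels were high together in one cluster. The palindrome TGACGTCA, its own reverse complement, was found in 3 of the 9 promoters, those of Chgb, Scg2 and Pcsk1, against 1.80% of 32544 mouse promoters of the same 300 bases. The variant TGACGTAA, searched on both strands, was found in 1 of the 9, that of Chga, against 0.501% of all. The E-box CAGATG, a site type bound by NEUROD1-like factors and searched on both strands, was found in 0 of the 9, against 17.1% of all. The 120 bases before the annotated start of these 4 genes follow, with the CRE match in capitals. The windows are chr12:102554821-102554940 on the plus strand for Chga, chr2:132781522-132781641 on the plus strand for Chgb, chr1:79440027-79440146 on the minus strand for Scg2 and chr13:75089737-75089856 on the plus strand for Pcsk1.
Chga: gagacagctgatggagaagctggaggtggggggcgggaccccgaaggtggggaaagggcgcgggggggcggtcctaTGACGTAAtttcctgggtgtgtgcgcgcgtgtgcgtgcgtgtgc
Chgb: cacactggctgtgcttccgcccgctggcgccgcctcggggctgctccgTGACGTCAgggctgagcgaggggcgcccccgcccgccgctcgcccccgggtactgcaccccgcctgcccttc
Scg2: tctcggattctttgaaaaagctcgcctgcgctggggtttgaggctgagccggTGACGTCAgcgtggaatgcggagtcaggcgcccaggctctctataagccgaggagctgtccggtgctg
Pcsk1: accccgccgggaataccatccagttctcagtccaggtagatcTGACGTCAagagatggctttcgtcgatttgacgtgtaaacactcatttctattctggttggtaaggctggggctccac
The first base of the match lay at -44 from the start in Chga, -72 in Chgb, -68 in Scg2 and -78 in Pcsk1. A match describes the letters and does not show binding.

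The series holds 6 libraries of C57BL/6 embryos, 1 for each genotype, assay and stage: single-cell RNA at E10.5, ATAC at E10.5 and ATAC at E13.5. Wild-type (WT) embryos were Ptf1a+/+. The other genotype (KO) was Ptf1aenh-delta/enh-delta, homozygous for a deleted enhancer of Ptf1a, a transcription factor of the early pancreas. Material was dissected pancreatic tissue pooled from 5 to 9 embryos per dataset at E10.5 and 6 at E13.5, so no value has a biological replicate. Genotype therefore cannot be told apart from the library, and at E13.5 also from the month, since the barcodes of the 2 genotypes name different months.

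The RNA libraries held 4665222 UMIs (unique molecular identifiers, counted transcripts) in 1104 WT barcodes and 4360076 UMIs in 815 KO barcodes. Cells with at least 1000 genes were kept, 451 WT and 369 KO, with medians of 6700 and 9856 UMIs. The ATAC libraries held 838 WT and 700 KO nuclei at E10.5 and 2314 WT and 602 KO nuclei at E13.5. The 2 genotypes shared 1 RNA barcode, 0 ATAC barcodes at E10.5 and 2 at E13.5. Intervals below are exact 95% intervals that cover counting error alone and leave out the spread between cells and between embryos.

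RNA cells were clustered without the members, and the classes were drawn from genes outside the list. The progenitor class was the cluster led by pancreatic progenitor markers (123 WT and 74 KO cells). When the cells were clustered more finely, 16 WT and 37 KO of these fell in a hepatobiliary-like cluster. The endocrine-like cluster (67 WT and 139 KO cells) was divided by hormone transcripts: 54 WT and 105 KO cells with at least 0.5% of UMIs from the 8 islet hormone genes were hormone-positive. Below that share, 6 WT and 18 KO cells with a Neurog3 UMI were Neurog3-positive, and 7 WT and 16 KO cells met neither gate. The hormone share is a range, not a type: 5 WT and 23 KO endocrine-like cells lay between 0.25% and 1%. The Neurog3-positive sums rest on 43541 WT and 128059 KO UMIs, against 705671 and 1233931 in hormone-positive cells and 1654332 and 1186054 in progenitors, and the WT Neurog3-positive class carries the widest intervals.

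Genes outside the list were read in each class. Levels are in CPM, the UMIs of a gene scaled to one common total per class. Neurog3 was at 896 CPM in WT and 976 CPM in KO Neurog3-positive cells, a class whose gate required a Neurog3 UMI, so this level describes the gate. It was at 7.1 and 35.7 CPM in hormone-positive cells, and 13.9 and 17.7 CPM in progenitors. Fev, a transcription factor of endocrine precursors, was at 413 and 211 CPM in Neurog3-positive cells and at 86.4 and 111 CPM in hormone-positive cells. Rest, a repressor of neuronal and neuroendocrine genes, was at 109 CPM in WT and 167 CPM in KO progenitors, at 12.8 and 16.2 CPM in hormone-positive cells, and had 0 and 1 UMI in Neurog3-positive cells. Granule genes are also neuronal, so neural markers were read in the same cells: Phox2a, Stmn2 and Dbh had 0 UMIs in the hormone-positive cells of both libraries. The neural list of 14 genes summed to 242 and 248 CPM there with 8 and 11 genes above 0, to 873 and 562 CPM in Neurog3-positive cells with 6 genes above 0 in each, and to 49.6 and 29.5 CPM in progenitors. The mesenchyme list of 12 genes summed to 234 and 288 CPM in hormone-positive cells and 428 and 421 CPM in progenitors. The part of other cells' RNA in the members' levels was not tested.

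Chga, the granin used as a general endocrine marker, was at 4.84 CPM (95% interval 2.09 to 9.53) in WT progenitors and 2.53 CPM (0.52 to 7.39) in KO progenitors. In Neurog3-positive cells it was at 68.9 CPM in WT, from 3 UMIs in 1 cell, and at 273 CPM (190 to 380) in KO. In cells under both gates it was at 225 and 429 CPM. In hormone-positive cells it was at 653 CPM (595 to 716) in WT and 493 CPM (454 to 534) in KO. The order progenitors, Neurog3-positive, under both gates, hormone-positive was the same in both libraries, although the intervals of the middle pair overlapped in each and those of the last pair in KO. Hormone-positive over progenitor cells, the ratio was 135 (68.0 to 315) in WT and 195 (66.3 to 947) in KO.

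Scg3, a granin that binds Chga and cholesterol-rich granule membrane, was at 3.02 CPM in WT progenitors and had 0 UMIs in KO progenitors. It was at 23.0 CPM in WT Neurog3-positive cells, from 1 UMI, and at 62.5 CPM in KO. Hormone-positive cells had 319 CPM (279 to 363) in WT and 266 CPM (238 to 296) in KO. Scg3 and Chga thus had the same order of classes.

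Scg2, the granin precursor of secretoneurin, was the granin detected in the fewest hormone-positive cells of both libraries. It had 1 UMI in WT progenitors, 2 in KO progenitors and 0 in Neurog3-positive cells of both libraries. Hormone-positive cells had 70.9 CPM (52.6 to 93.4) in WT and 60.0 CPM (47.1 to 75.3) in KO. Its transcripts were found in 15 of 54 WT and 31 of 105 KO hormone-positive cells. In KO the hormone-positive level was at least 2.56-fold higher than a Neurog3-positive count of 3 would give. In WT the same bound was 1.03-fold, so the 6 WT cells leave the size of the difference unmeasured.

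Chgb, a granin that takes part in granule formation, was highest in endocrine-like cells below the hormone share when the class sums were read. It was at 3.02 CPM in WT and 80.9 CPM in KO progenitors, 3261 CPM (2747 to 3844) in WT and 2936 CPM (2647 to 3248) in KO Neurog3-positive cells, 1873 and 5839 CPM under both gates, and 1128 CPM (1051 to 1209) and 1352 CPM (1288 to 1418) in hormone-positive cells. Single cells carried those sums. One WT Neurog3-positive cell held 121 of 142 Chgb UMIs (85.2%), and 1 KO cell held 236 of 376 (62.8%). Without that cell the Neurog3-positive level was 597 CPM in WT and 1184 CPM in KO. The median Neurog3-positive cell was at 289 CPM in WT and 164 CPM in KO, below the median hormone-positive cell at 569 and 486 CPM. The order of Neurog3-positive and hormone-positive cells for Chgb therefore depends on whether the sum or the median cell is read. In KO progenitors 93 of 96 UMIs lay in 1 cell that a doublet caller marked and that had 0.98% hormone UMIs, and the rest of the class was at 2.59 CPM.

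**Figure D1:**
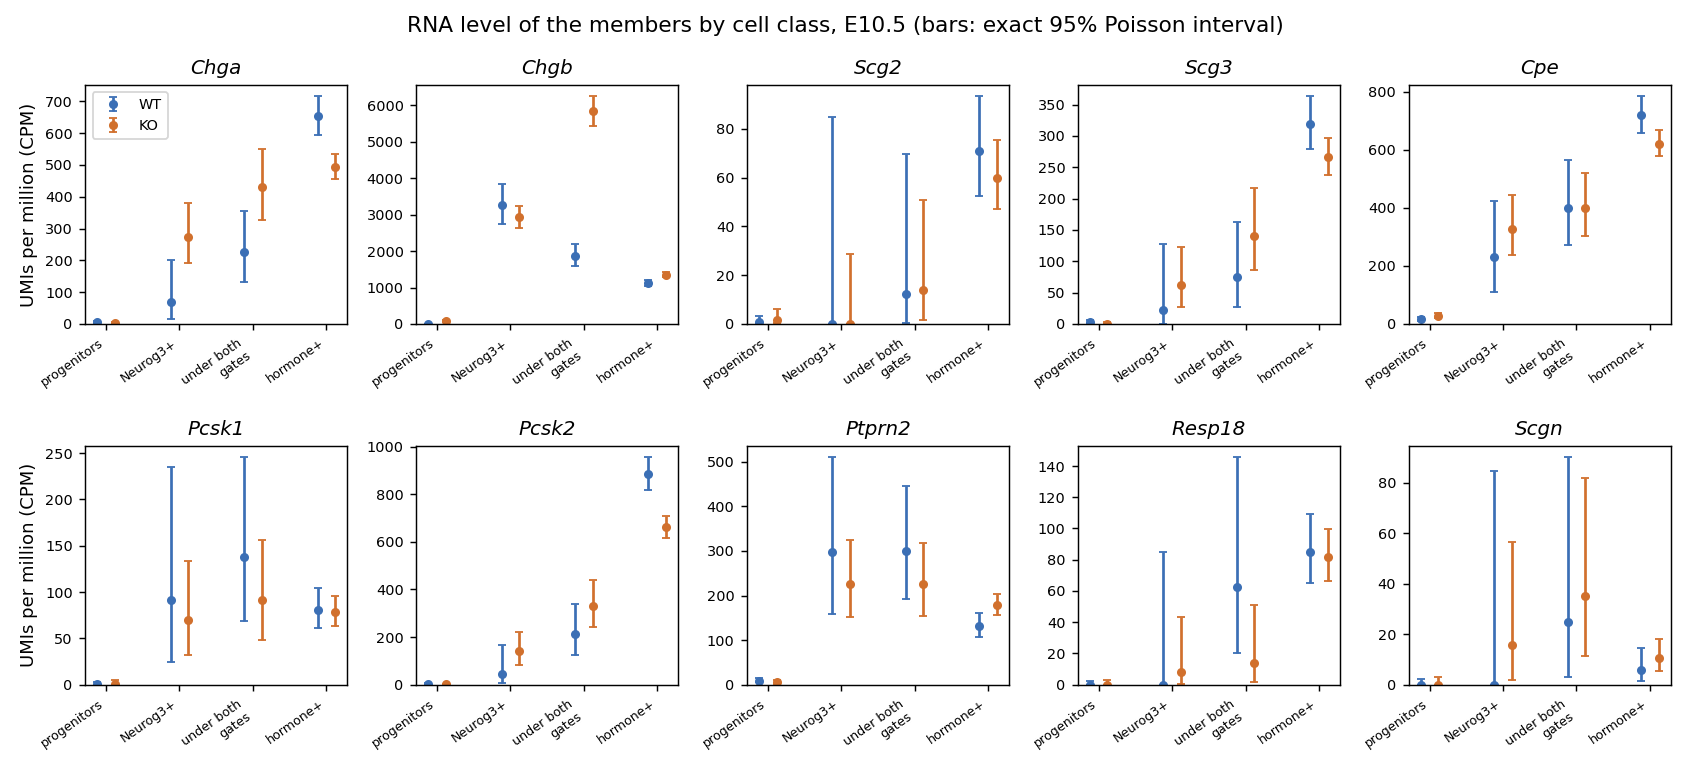
RNA level of each member (CPM, vertical axis from 0 on a scale of its own) in 4 cell classes of the WT (blue) and KO (orange) E10.5 libraries, with exact 95% Poisson intervals. Chga, Scg2, Scg3, Cpe, Pcsk2 and Resp18 are highest in hormone-positive cells of both libraries, while Chgb and Ptprn2 are higher in Neurog3-positive cells than in hormone-positive cells in these class sums.

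Among the processing enzymes, Cpe was detected in more progenitors than any other member, 19 of 123 in WT and 19 of 74 in KO. It was at 16.9 CPM (11.2 to 24.5) in WT and 27.8 CPM (19.1 to 39.1) in KO progenitors, 230 and 328 CPM in Neurog3-positive cells, 400 and 401 CPM under both gates, and 720 CPM (659 to 785) and 622 CPM (578 to 667) in hormone-positive cells. The ratio of hormone-positive to progenitor cells was 42.5 (29.1 to 64.7) in WT and 22.3 (15.8 to 32.7) in KO. The 4 classes kept one order in both libraries, although the intervals of the Neurog3-positive and under-both-gates classes overlapped.

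The 2 convertases differed. Pcsk2, which makes glucagon from proglucagon in adult alpha cells, was at 2.42 and 0.84 CPM in progenitors, 45.9 and 141 CPM in Neurog3-positive cells, 212 and 331 CPM under both gates, and 884 CPM in WT and 661 CPM in KO hormone-positive cells. Hormone-positive over Neurog3-positive cells, its ratio was 19.3 (5.31 to 159) in WT, from 2 UMIs in the denominator, and 4.70 (2.96 to 7.98) in KO. Pcsk1, whose product releases GLP-1 from the same precursor, had 1 UMI in the progenitors of each library. It was at 91.9 and 70.3 CPM in Neurog3-positive cells, 137 and 91.5 CPM under both gates, and 80.8 and 78.6 CPM in hormone-positive cells. Its ratio of hormone-positive to Neurog3-positive cells was 0.88 (0.33 to 3.34) in WT and 1.12 (0.57 to 2.52) in KO, intervals that hold both a 2-fold higher and a nearly 2-fold lower level.

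Ptprn2 (phogrin), a phosphatase-like protein of the granule membrane, was at 9.07 and 5.06 CPM in progenitors, 299 CPM in WT and 226 CPM in KO Neurog3-positive cells, 300 and 225 CPM under both gates, and 132 CPM (106 to 161) and 178 CPM (155 to 203) in hormone-positive cells. It was the only member besides Chgb below a ratio of 0.5 from Neurog3-positive to hormone-positive cells, at 0.44 (0.25 to 0.86) in WT, while the KO ratio was 0.79 (0.53 to 1.20). In WT its most loaded Neurog3-positive cell held 30.8% of 13 UMIs. Resp18, a luminal protein of the secretory pathway of endocrine cells, had 0 UMIs in progenitors of both libraries and 0 and 1 in Neurog3-positive cells. It was at 85.0 CPM (64.9 to 109) in WT and 81.9 CPM (66.7 to 99.5) in KO hormone-positive cells. Scgn (secretagogin), a calcium-binding protein of endocrine cells, was nearly silent: hormone-positive cells had 4 UMIs in WT and 13 in KO, and progenitors had 0.

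With a gene called when the ratio of CPM + 10 reached 2-fold and its 2 groups held 50 UMIs together, 9 members could be read between hormone-positive and progenitor cells and 9 were higher in each library, where 7.91% of all genes tested in WT and 8.06% in KO were. Most of the 9 met the minimum almost wholly through the hormone-positive cells (in WT, 50 and 1 UMIs for Scg2 and 60 and 0 for Resp18), which nearly fixes their direction, so the count describes these genes and does not support the direction. Scgn missed the minimum. Between Neurog3-positive cells and progenitors the same minimum left 1 member in WT (Chgb) and 2 in KO (Chgb and Cpe), each higher, against 10.9% and 5.94% of all genes.

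Between hormone-positive and Neurog3-positive cells 6 of 9 members were 2-fold higher in WT (Chga, Scg2, Scg3, Cpe, Pcsk2 and Resp18), where 16.2% of all genes were. Chgb and Ptprn2 were 2-fold lower, as were 7.13% of all genes. Scg2 and Resp18 met 0 UMIs in the WT Neurog3-positive cells, and these calls took the level there as 0. With a class at 0 set to 3 counts, their bounds were 1.03-fold and 1.23-fold and 4 of 9 members were higher, against 13.6% of all genes. Genes with few UMIs in the 6 WT cells can pass 2-fold within their counting intervals. The members called higher met the minimum mainly through the hormone-positive cells. In WT, Scg3 had 225 UMIs there and 1 in Neurog3-positive cells, and Pcsk2 had 624 and 2. In KO, Scg2 had 74 and 0. This favours a higher call, so the counts in both libraries describe these genes and do not support the direction. In KO 4 of 9 were higher (Scg2, Scg3, Pcsk2 and Resp18, the last from 1 UMI in the denominator) against 7.27% of all genes, and also 4 of 9 with 0 set to 3 counts, against 6.97%. Chgb was lower, as were 3.42% of all genes. Chga at 1.80 (1.28 to 2.61) and Cpe at 1.90 (1.39 to 2.65) stayed under 2-fold in KO. The lower calls of Chgb reversed when each group's most loaded cell was left out, to log2 ratios of 0.53 in WT and 0.07 in KO.

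Counts of members per cell gave the same order of classes at equal depth. With every cell thinned to 2000 UMIs, leaving out the shallower cells (5 WT and 3 KO progenitors, 1 KO cell under both gates and 1 WT hormone-positive cell), the median cell held 0 of the 10 members in WT and 0 in KO progenitors, 1.5 and 2 in Neurog3-positive cells, 2 and 3 under both gates, and 4 and 4 in hormone-positive cells. Unthinned, the medians were 0 and 0, 2 and 3, 6 and 5, and 7 and 7. Chga was detected in 28 of 53 thinned WT hormone-positive cells (52.8%, 38.6% to 66.7%, Clopper-Pearson) and 49 of 105 in KO (46.7%). Among thinned progenitors it was detected in 0 of 118 in WT, with an upper Clopper-Pearson limit of 3.08% at that depth, and in 1 of 71 in KO. Unthinned, it was detected in 94.4% and 83.8% of hormone-positive cells and in 5.69% and 4.05% of progenitors. Cpe was detected in 75.5% and 62.9% of thinned hormone-positive cells and in 4.24% and 5.63% of thinned progenitors, and unthinned in 96.3% and 94.3% against 15.4% and 25.7%. The part of free RNA in the progenitor shares was not tested.

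The endocrine-like cluster held 83.7% of WT and 85.6% of KO Chga UMIs over all kept cells, 74.1% and 78.2% of those of Cpe, and 77.6% and 83.0% of those of Pcsk2. For Chgb the shares were 71.9% and 85.0%. Most of the rest lay in the mesenchyme-like cluster, and there it followed hormone transcripts: the 12 WT and 22 KO cells of that cluster with at least 0.5% hormone UMIs had 259 and 222 CPM of Chga, and the others 23.3 and 28.2 CPM. Chgb was less divided, at 501 and 408 CPM against 338 and 306 CPM. At the finer clustering 8 WT and 11 KO endocrine-like cells joined a mesenchyme-like cluster, so the border between these clusters is not sharp.

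The per-cell values show how uneven Chgb was. At a level of 5000 CPM, a cut set after the values were seen and used only as a description, 19 of 206 endocrine-like cells were Chgb-high: 5 of 67 WT cells (7.46%, interval 2.47% to 16.6%) and 14 of 139 KO cells (10.1%, interval 5.62% to 16.3%). No cell outside the cluster reached it. These 19 cells held 2419 of the cluster's 3962 Chgb UMIs (61.1%), 50.9% in WT and 64.9% in KO. Their levels ran from 5634 to 31545 CPM, and 13 endocrine-like cells lay within 1.5-fold of the cut on either side. The other endocrine-like cells had a median of 479 CPM in WT and 420 CPM in KO. Median depth was 8368 UMIs in WT and 10356 in KO high cells, against 11988 and 10162 in the others, and 1 of the 19 was marked as a doublet.

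Chgb-high cells were spread over the classes, with 1 WT and 2 KO in the Neurog3-positive class, 1 and 4 under both gates and 3 and 8 in the hormone-positive class. Beside the other endocrine-like cells they had more Chga, with ratios of 1.61 (1.15 to 2.21) in WT and 1.97 in KO, and less Pcsk2, with 0.47 and 0.26. Gcg was at 232 CPM against 28670 CPM in WT and at 7424 against 19483 CPM in KO, and Ghrl at 0 against 1566 CPM and 38.0 against 3551 CPM. Pyy was nearly even, with ratios of 1.21 and 1.05. Fev was 5.08 and 3.02 times as high in them. Other regulators were mixed, with Pax6 at ratios of 3.17 and 1.54 but Insm1 at 0.80 and 0.99 and Isl1 at 0.77 and 0.57. Neurog3 was at 1.20 (0.24 to 3.78) in WT and 0.54 (0.25 to 1.01) in KO. Cdkn1c and Tph1 were named after their values were seen. The cell cycle inhibitor Cdkn1c was at ratios of 7.08 and 3.35. Tph1, the enzyme that starts serotonin synthesis, was at 3.95 (2.16 to 6.96) in KO. In WT its ratio of 1.65 (0.038 to 11.6) rested on 1 UMI in the Chgb-high cells.

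**Figure D2:**
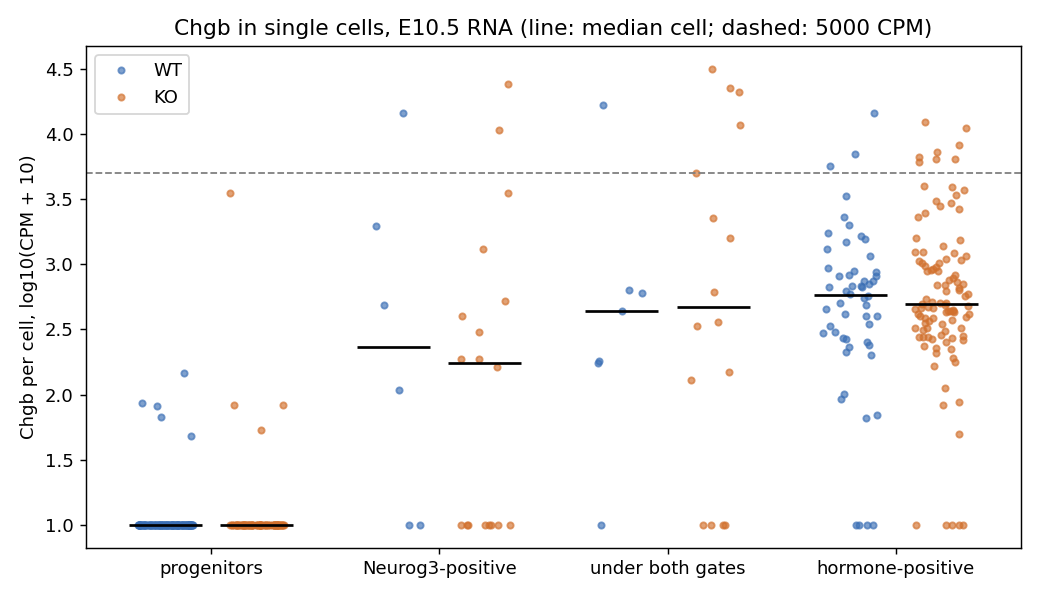
Chgb in each cell of 4 classes of the WT (blue) and KO (orange) E10.5 RNA libraries (vertical axis, log10 of CPM + 10), with black lines at the median cell and a dashed line at 5000 CPM. The 19 cells at or above the dashed line belong to the 3 classes of the endocrine-like cluster, and the median cell of the Neurog3-positive class lies below that of the hormone-positive class in both libraries.

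Hormone-positive cells were divided by the hormone with most UMIs in the cell. Gcg (glucagon) led 32 WT and 51 KO cells, Pyy (peptide YY) led 20 and 40, and Ghrl (ghrelin) led 2 and 14, while Ins1 and Ins2 led 0. In KO the groups also differed in Neurog3, found in 2 of 51 Gcg-leading and 11 of 40 Pyy-leading cells. In WT it was found in 1 of 32 and 1 of 20. The level of the leading hormone differed too, with Gcg at 43812 CPM in WT and 40876 CPM in KO Gcg-leading cells. Pyy was at 25945 and 13858 CPM in Pyy-leading cells. The part of these differences in the members' levels was not tested. Chgb was at 700 CPM in WT and 705 CPM in KO Gcg-leading cells and at 2134 and 2528 CPM in Pyy-leading cells, ratios of 3.05 (2.64 to 3.52) and 3.58 (3.21 to 4.01). The median cell differed the same way, at 483 against 748 CPM in WT and 472 against 1015 CPM in KO. Of the Chgb-high hormone-positive cells 3 of 3 in WT and 7 of 8 in KO were Pyy-leading. One cell held 41.8% of the WT Pyy-leading UMIs, and without the most loaded cell of each group the levels were 1324 and 622 CPM.

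Scg2 had the reverse pattern, with 87.6 CPM in WT and 79.1 CPM in KO Gcg-leading cells against 13.7 CPM (3 UMIs) and 21.8 CPM in Pyy-leading cells. The ratios were 6.39 (2.04 to 32.3) and 3.62 (1.81 to 8.02). Pcsk2 was 1.44 (1.19 to 1.74) and 1.74 (1.48 to 2.06) times as high in Gcg-leading cells, Scg3 1.43 (1.05 to 1.97) and 1.73 (1.34 to 2.26) times, and Chga 1.24 (1.01 to 1.54) and 1.62 (1.35 to 1.96) times. Cpe differed little, at 1.1 (0.91 to 1.34) and 1.05 (0.90 to 1.23). The intervals of Pcsk1 held 1 in both libraries. For Ptprn2 (0.76 and 0.60) and Resp18 (0.64 and 1.77) the interval held 1 in WT and not in KO, and the 2 Resp18 ratios pointed in opposite directions. The 14 KO Ghrl-leading cells had less Cpe than Gcg-leading cells, at a ratio of 0.54 (0.40 to 0.72).

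**Figure D3:**
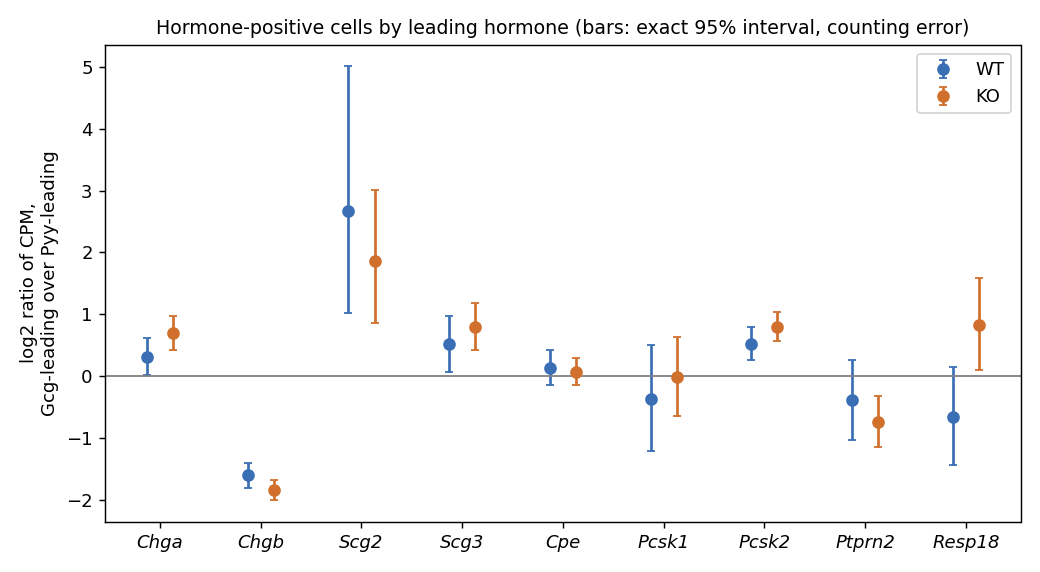
log2 ratio of CPM between Gcg-leading and Pyy-leading hormone-positive cells (vertical axis) for 9 members in the WT (blue) and KO (orange) E10.5 libraries, with exact 95% intervals for counting error. Chgb lies below 0 in both libraries, Scg2, Scg3, Pcsk2 and Chga lie above 0 with intervals that leave out 0, and Cpe lies near 0.

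Between genotypes, hormone-positive cells differed by less than 2-fold in these genes. In KO over WT 0 of 9 members passed 2-fold, near the 0.681% of all genes that did. The classes also differed in make-up, with a median hormone share of 4.88% in WT and 2.90% in KO. A Neurog3 UMI was found in 2 of 54 WT and 16 of 105 KO cells, and the part of this in the ratios was not tested. The ratios were 0.75 for Chga (0.67 to 0.85) and Pcsk2 (0.67 to 0.83), 0.83 for Scg3 (0.70 to 0.99), 0.86 for Cpe (0.77 to 0.97), 1.20 for Chgb (1.1 to 1.31) and 1.35 for Ptprn2 (1.06 to 1.74). For Scg2 (0.85), Pcsk1 (0.97) and Resp18 (0.96) the intervals held 1. The median log2 ratio of the members was -0.21, against 0.08 over all genes. The Chgb ratio was 1.01 (0.90 to 1.13) without the 3 WT and 8 KO Chgb-high cells of this class. Those cells were picked by their Chgb level, so leaving them out lowers Chgb by construction. This ratio describes the remaining cells only, and the part of the Chgb-high cells in the genotype difference was not tested.

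In Neurog3-positive cells 0 of 2 readable members passed 2-fold between genotypes, against 6.58% of all genes. In progenitors 1 of 2 did, Chgb, against 2.08%, and the single marked cell described above held that difference. Over all kept cells 1 of 9 passed, Chgb at 2.29 (2.15 to 2.43), against 0.627% of all genes, and the other 8 ratios lay between 1.31 and 1.88. Beside these values, the endocrine-like cluster made up 14.9% (11.7% to 18.5%) of the 451 kept cells in WT and 37.7% (32.7% to 42.8%) of the 369 in KO, and the part of that share in the summed levels was not tested. Without the Chgb-high cells the summed Chgb ratio was 1.66 (1.53 to 1.81), which again leaves out cells by the value compared and describes the remaining cells only. Scaling by median ratios brought Chgb from 1.17 to 0.998 on the log2 scale, just under the cut. The median log2 ratio of CPM + 10 over all genes was 0.13 before that scaling.

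Granule genes outside the 10 were read from a list of 33. Of its 11 prohormone genes 4 of 6 that could be read were 2-fold higher in hormone-positive cells than in progenitors in WT, and 4 of 7 in KO, with 0 lower. Of its 22 exocytosis genes 12 met the minimum in WT and 14 in KO, and these were higher, beside 7.91% and 8.06% of all genes. Genes met the minimum mainly through the hormone-positive cells, and Stx1a (log2 0.79 in WT), Rab3b (0.0031) and Cadps2 (-0.38) stayed outside it. The highest were Pcsk1n, an inhibitor of the Pcsk1 convertase, at 404 against 7.25 CPM in WT, and Ptprn, the relative of Ptprn2, at 197 against 2.42 CPM. The calcium sensor relatives Syt13 and Syt7 were at 145 against 7.25 CPM and 140 against 8.46 CPM. The lowest of those that could be read were Cpd, a broadly expressed carboxypeptidase, at 43.9 against 38.7 CPM, and Furin, a broadly expressed convertase, at 31.2 against 17.5 CPM. In KO, Cpd was at 44.6 against 30.4 CPM and Furin was lower in hormone-positive cells, at 18.6 against 28.7 CPM. Between hormone-positive and Neurog3-positive cells the exocytosis genes were mixed. In WT 4 of 11 were higher and 5 lower, beside 16.2% and 7.13% of all genes. Vamp2, Rab3a and Ica1 met 0 UMIs in the Neurog3-positive cells. With 0 set to 3 counts, 1 of 11 was higher, beside 13.6% of all genes. In KO 3 of 14 were higher and 2 lower, beside 7.27% and 3.42%. The prohormone genes had 3 of 4 higher in WT and 2 of 5 in KO, and 0 lower.

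The genes most like the members' mean level over the 8 cluster-by-library groups were Rundc3a (r = 0.997), Mapk8ip2 (0.997), Slc7a14 (0.997), Jph4 (0.996) and Disp2 (0.996). With 8 groups that share 2 libraries and 1 group pair that is endocrine-like, this describes genes that mark one cluster. Over the 15 groups of the finer clustering the 5 genes were Gm20554, Disp2, Irx2, Gnas and Irx1, so Disp2 alone was in both sets.

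The ATAC values are a gene signal that sums to 10000 over the 8269 genes of a nucleus, so levels are compared between cells for one gene and not between genes. The endocrine-like cluster held 60 WT and 67 KO nuclei at E10.5 and 379 WT and 49 KO at E13.5. It was compared with a reference cluster, the other cluster with the highest progenitor marker score, of 529 and 468 nuclei at E10.5 and 929 and 227 at E13.5. That cluster was left unnamed at E10.5, where its progenitor score was low. A gene was called at 1.5-fold.

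Cpe, Pcsk2, Ptprn2, Resp18 and Chga were at least 1.5-fold higher in the endocrine-like cluster in all 4 libraries. Ptprn2 was at 13.6 and 14.1 at E10.5 and 11.3 and 13.6 at E13.5 (WT and KO), which was 3.55, 4.30, 3.77 and 5.68 times the reference. Cpe was at 2.26 and 1.68 and then 1.89 and 1.55, with folds of 3.64, 2.64, 3.98 and 3.16. Resp18 had folds of 2.39, 3.18, 3.33 and 4.21, Pcsk2 of 2.47, 3.30, 1.87 and 4.17, and Chga of 1.73, 1.65, 2.28 and 1.93.

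Chgb was less divided between the clusters in signal at E10.5, with folds of 1.13 in WT and 1.42 in KO, and 1.97 and 1.80 at E13.5. Scg3 was at 1.32, 1.98, 2.53 and 3.25, and Pcsk1 at 1.65, 1.43, 2.63 and 3.09. Scg2, whose RNA was found mainly in hormone-positive cells, did not have more signal there: it was at 0.54 against 0.97 in WT and 0.44 against 0.90 in KO at E10.5, folds of 0.56 and 0.49, and 1.02 and 0.77 at E13.5. Scgn, nearly silent in RNA, had folds of 1.40 in WT and 0.66 in KO at E10.5 and 1.63 and 2.10 at E13.5. The E10.5 folds of Scg2 in both genotypes and of Scgn in KO passed 1.5-fold in the lower direction, as did 10% of all genes in WT and 11.1% in KO. In counts, 6 of 10 members were 1.5-fold higher in E10.5 WT against 7.09% of all genes, and 6 of 10 in E10.5 KO against 6.88%. At E13.5, 9 of 10 were higher in WT against 4.09% and 9 of 10 in KO against 10.2%, all but Scg2. The median log2 fold was 0.76, 0.86, 1.26 and 1.64, against -0.03 to -0.01 over all genes.

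These calls are of the mean signal. Read as the share of nuclei above 0, 1, 0, 3 and 1 members passed 1.5-fold. This was out of 5, 5, 8 and 6 members whose reference share, at up to 66.7%, left room for such a difference. The share of all genes passing on this measure was not read, so these counts have no background beside them. Chga in both KO libraries and Scgn in E13.5 KO changed direction. Nuclei of the reference cluster had medians of 5559 and 5913.5 genes above 0 at E10.5, against 5047 and 4659 in endocrine-like nuclei, and 4512 and 5941 against 4396 and 4651 at E13.5. The part of that depth in the shares was not tested. Of the wider list 6 prohormone and 12 exocytosis genes were listed. In the order above, 1, 3, 4 and 4 of the 6 and 8, 7, 10 and 8 of the 12 were higher, beside 7.09%, 6.88%, 4.09% and 10.2% of all genes. In E10.5 WT 2 of the 6 and 1 of the 12 were lower, beside 10%, and in the other libraries 0.

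Between genotypes the endocrine-like nuclei differed in 1 of 10 members at E10.5, Scgn at 0.45, where 11% of all genes passed 1.5-fold, and in 2 of 10 at E13.5, Pcsk2 at 2.24 and Scg3 at 1.56, where 13.4% did. In the reference cluster 0 of 10 passed at E10.5, against 0.158%, and 0 of 10 at E13.5, against 1.7%. From E10.5 to E13.5, 1 of 10 passed in WT (Pcsk2 at 0.49, from 3.51 to 1.72), against 10.2% of all genes, and 1 of 10 in KO (Scgn at 2.36), against 17.9%. These counts sit at or near the share of all genes, and the stages differ in the tissue taken, and their tables were scaled separately.

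**Figure D4:**
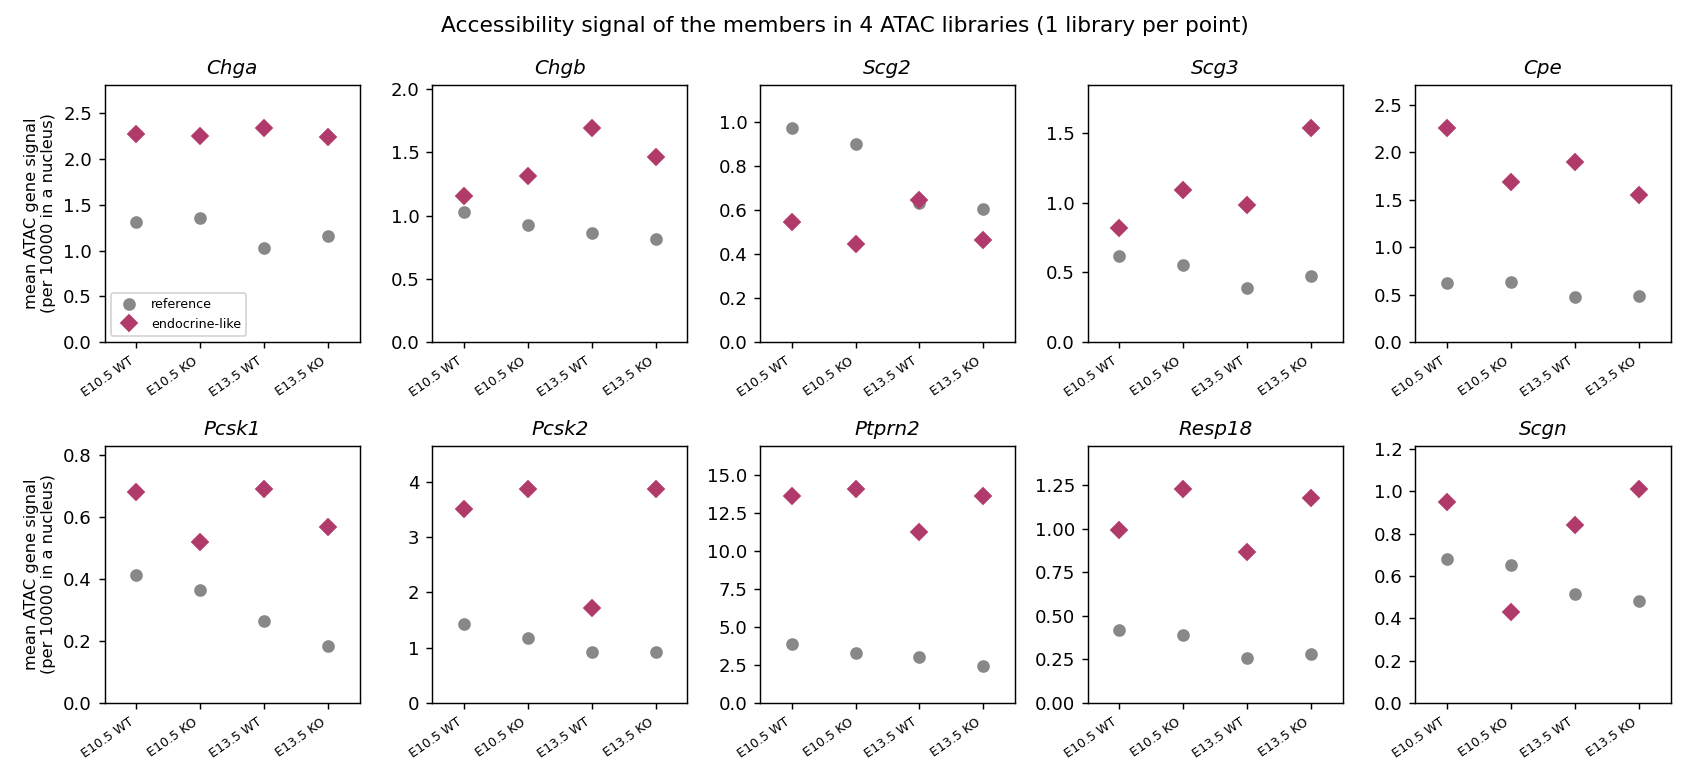
Mean ATAC gene signal of each member (vertical axis from 0, signal per 10000 in a nucleus) in the reference cluster (grey circles) and the endocrine-like cluster (magenta diamonds) of the 4 libraries, ordered E10.5 WT, E10.5 KO, E13.5 WT and E13.5 KO. Diamonds lie above circles for Cpe, Pcsk2, Ptprn2, Resp18 and Chga in every library, and for Scg2 they lie below or near the circles.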

How the data were processed

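Single-cell RNA counts and ATAC gene signals were read as deposited. The authors' RNA matrix holds whole UMI counts per gene and cell from a 10x Genomics 3′ version 3 kit, per the labels' protocols, and build mm10 is named in the submitters' processing notes. The authors' ATAC matrices hold a deposited gene signal that sums to 10000 per nucleus, and how fragments became this signal is not given in the sources. Columns mapped to no sample numbered 0. The 10 genes and all lists were chosen with earlier results of these data known.

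Cells with at least 1000 genes were clustered with scanpy 1.11.5 (2000 variable genes, 30 components, 15 neighbours, Leiden resolution 0.3, leidenalg 0.10.2), leaving out the members, the wider granule list, Ptf1a and tip and acinar genes. Doublets called by Scrublet were kept. UMIs were summed per class. With 1 library per group no test was possible, so ratios have exact 95% Poisson, conditional or Clopper-Pearson intervals. UMIs were counted, so intervals cover counting error only. Calls took a class with 0 UMIs as 0, and bounds set it to a floor of 3 counts over the class. RNA genes needed 50 UMIs over both groups and 2-fold in CPM + 10, ATAC genes a signal in 10% of nuclei and 1.5-fold in mean signal. The genes named were all members, the 4 highest and 2 lowest of the wider list by the WT hormone-positive over progenitor ratio, class regulators and the 5 genes most correlated with the members' mean. The steps were tested on simulated data. Alternatives changed the cell filter, thinning, doublets, hormone share, minimum, pseudocount, scaling, clustering and fold.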

Additional observations from a re-analysis of the deposited data

Results flagged for a closer look

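Scgn passed 1.5-fold in ATAC signal in 1 group and pointed the other way, past 1.1-fold, in another group under the same contrast, a difference that was not tested. Chgb also pointed both ways below 1.5-fold, at log2 0.19 at E10.5 and -0.21 at E13.5 for KO over WT in endocrine-like nuclei, and so did Scg3 in the reference cluster, at -0.17 and 0.28. Endocrine-like over reference nuclei at E10.5, the log2 fold of Scgn was 0.48 in WT and -0.60 in KO. KO over WT in endocrine-like nuclei, it was -1.15 at E10.5 and 0.27 at E13.5. E13.5 over E10.5, it was -0.17 in WT and 1.24 in KO. All 3 contrasts of Scgn share its E10.5 KO endocrine-like mean of 0.43, from 67 nuclei. The other means were 0.95 in E10.5 WT, 0.84 in E13.5 WT and 1.01 in E13.5 KO.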

How the results depend on the processing

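Of the counts of members past the fold, 226 kept within 1.5 times the value above under an alternative and 45 moved. Of the single log2 ratios, 1188 stayed, 228 moved and 5 reversed. Leaving out each group's most loaded cell, joining all cells under the hormone share, leaving out endocrine-like cells that joined a mesenchyme-like cluster, leaving out hepatobiliary-like progenitors and setting a class at 0 UMIs to 3 counts were chosen after seeing the data. Thinning to 2000 UMIs left 4 members higher in WT and 5 in KO in hormone-positive over progenitor cells, 0 and 1 in Neurog3-positive over progenitor cells, and 3 and 2 in hormone-positive over Neurog3-positive cells, with 1 and 0 lower. In hormone-positive over progenitor cells 4 and 5 members still met the minimum, and the lowest of their log2 ratios was 4.43 in WT and 3.86 in KO. Neurog3-positive over progenitor counts were 3 (WT) and 6 (KO) with all barcodes, 4 and 6 at a minimum of 10 UMIs, 3 and 5 with all cells under the hormone share, 4 in KO at a hormone share of 2%, and 0 in WT without the most loaded cell. Lower counts in hormone-positive over Neurog3-positive cells were 1 in WT and 0 in KO without the most loaded cell, and 0 in KO at a 2% hormone share or without doublets, and Chgb reversed to 0.53 in WT and 0.073 in KO. Between genotypes, Neurog3-positive cells gave 1 at a 2% hormone share, 2 at 10 UMIs and 1 with all cells under the share. Progenitors gave 0 without the most loaded cell, with all barcodes, at 2000 genes, thinned or without doublets. All kept cells gave 3 thinned, 0 under median-of-ratios scaling and 4 at 1.5-fold. In ATAC, the share of nuclei above 0 gave 1, 0, 3 and 1 members for endocrine-like over reference (E10.5 WT and KO, E13.5 WT and KO), with Chga at -0.038 in E10.5 KO and -0.042 in E13.5 KO and Scgn at -0.024 in E13.5 KO (log2). For genotype it gave 2 at E10.5 and 0 at E13.5 in endocrine-like nuclei and 1 in the E13.5 reference, and for stage 2 in KO. A lower fold cut than 1.5 gave 4 and 4 for genotype in endocrine-like nuclei, 1 in the E13.5 reference, and 2 and 2 for stage. Leaving out nuclei at each end of genes above 0 gave 1 in the E13.5 reference. The cause was not tested, and the share of all genes on the measure of nuclei above 0 was not read. The counts under alternatives have no share of all genes beside them here, so a rise or fall is not a result about the members. No paired analysis was possible because each group has 1 library. Depth limits the Neurog3-positive class most, at 6 WT cells and 43541 UMIs.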
